A study of Mus musculus with 12 samples.

Results

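The data concern how the effect of a conditional knockout (cKO) on RNA levels depends on tissue. The measure was the difference of 2 effects, computed for each gene as the log2 fold change of tumor cKO over tumor WT minus the log2 fold change of spleen cKO over spleen WT. It uses all 12 of the 12 libraries of the series, in 4 groups of 3: mouse samples that carry the label of natural killer (NK) cells, from tumors of cKO mice, from tumors of WT mice, from spleens of cKO mice and from spleens of WT mice. The cells were sorted, and total RNA was sequenced in bulk. The knockout hit 1 gene, and the study's stated subject is NK cell antitumor function and interleukin-15 receptor signalling. No source used here gives the Cre driver, strain, age, tumor line or sorting markers. Because the labels do not say that libraries came from separate animals, every p-value measures only the spread between these samples, which may be technical.

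NK cells are lymphocytes that kill tumor cells without prior sensitisation. Interleukin-15 keeps them alive and dividing through a receptor made of the chains encoded by Il15ra, Il2rb and Il2rg, which signals through the kinases JAK1 and JAK3 to the transcription factor STAT5. A tumor also holds macrophages, T cells, fibroblasts and dividing tumor cells, so that a sorted population from a tumor can carry their RNA as well.

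Totals ran from 15765906 to 37118494 counts in the 6 tumor libraries and from 9542329 to 13753737 counts in the 6 spleen libraries. The libraries differed from their labels in cell type markers. Ncr1, the activating receptor NKp46 that defines mouse NK cells, was at 0.769, 0.421 and 0.658 CPM in tumor cKO libraries, against 1.86, 1.75 and 1.63 CPM in tumor WT libraries. In spleen it was at 151, 90.8 and 154 CPM in spleen cKO libraries, against 128, 154 and 204 CPM in spleen WT libraries, so that every tumor library was far below every spleen library. Pax5, which encodes a B cell transcription factor, stood at 506, 465 and 564 CPM in spleen cKO libraries, against 648, 563 and 491 CPM in spleen WT libraries, and 15 B cell genes summed to between 5704 and 6250.1 CPM in spleen cKO, against between 6115 and 6780 CPM in spleen WT. The samples are therefore called tumor and spleen samples here. CPM levels of single genes here are counts scaled to the size and composition of each library. Summed levels of gene lists, and the level of Xist, are scaled to library totals only. Tumor cKO replicate 3 and tumor WT replicate 2 stood apart from their groups. Lyz2, a lysozyme gene of myeloid cells, stood at 522 CPM in tumor cKO replicate 3 against 1333 and 1228 CPM in the other tumor cKO libraries, and at 6629 CPM in tumor WT replicate 2 against 1996 and 2045 CPM in the other tumor WT libraries. Tumor WT replicate 3 had the highest summed B cell genes of the tumor libraries, 1965 CPM, while the other 5 tumor libraries held 108 to 237 CPM. In bulk samples, fewer cells of a type and less RNA per cell cannot be told apart.

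The cKO effect differed between the tissues for 3072 of 16831 genes tested, which is 18.3% (adjusted p under 0.05, edgeR). The difference was higher, meaning more positive in tumor than in spleen, for 1293 genes (7.68%), and lower for 1779 genes (10.6%). A difference of at least 2-fold was seen for 2106 of the called genes, 711 higher and 1395 lower. The effect itself passed for 6399 genes in tumor (38.0%) and for 5 genes in spleen (0.0297%), all 5 higher in spleen cKO. In spleen 784 genes had an unadjusted p under 0.05 and DESeq2 called 46. Among the 3072 genes the median size of the effect was 1.20 on the log2 scale in tumor and 0.134 in spleen. The tumor effect was the larger of the pair for 2917 genes and the spleen effect for 155. The levels of tumor cKO and tumor WT did not overlap for 97.8% of the called genes and for 50.3% of all genes, and those of spleen cKO and spleen WT for 18.5% of the called genes and 11.4% of all. The difference rests on the same libraries as each tissue's own effect, so these values stand side by side and are not separate evidence. The median difference over all genes was −0.0985. Without a composition factor it was 0.0594 and the share of called genes that were higher was 58.0%, against 42.1% with the factor, so small shifts of a gene list are to be read against that. Without tumor WT replicate 2 the count was 4088 genes. Without tumor cKO replicate 3 it was 2180, of which 838 were higher. Without both it was 3797.

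**Figure D1:**
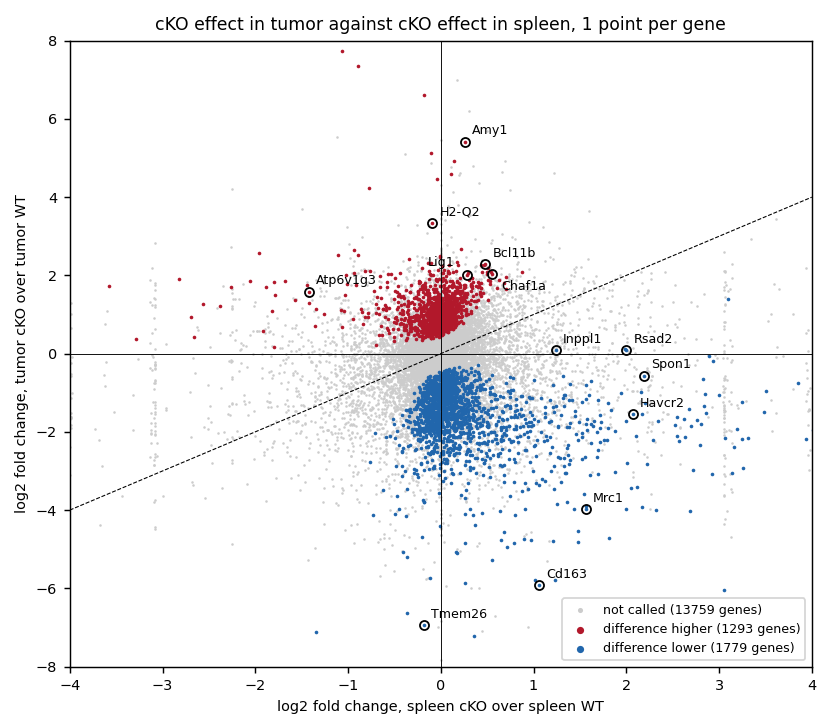
Each point is a gene, with the log2 fold change of spleen cKO over spleen WT on the horizontal axis and that of tumor cKO over tumor WT on the vertical axis; colours mark the 1293 genes called higher and 1779 called lower for the difference, and the dashed line marks equal effects in both tissues. The coloured points lie above and below the horizontal line at 0, mostly close to a spleen effect of 0, and Rsad2 and Inppl1 lie to the right at a tumor effect near 0. A total of 225 genes lie outside the axes.

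Genes called for the difference were described by which tissue's own effect had an unadjusted p under 0.05. For 2804 genes (91.3%) only the tumor effect did, 1213 of them higher and 1591 lower. For 180 genes both did with opposite signs, 46 up in tumor and down in spleen and 134 the other way round. A further 23 genes had effects of the same sign and different size in both tissues, and for 65 genes only the spleen effect had such a p. Over all genes tested, 44.9% had such a p in tumor only and 2.33% in spleen only. Opposite signs were seen for 184 of all genes (1.09%) and the same sign for 207 (1.23%). A call for the difference favours effects of opposite sign, so the split among called genes is no evidence for them. The count of 23 was 73 without tumor WT replicate 2, 14 without spleen WT replicate 2 and 15 without spleen cKO replicate 2 or spleen WT replicate 3. The count of 65 was 104 without tumor WT replicate 2, 39 to 42 without any 1 of tumor WT replicates 1 and 3 and the 3 spleen WT libraries, and 122 with DESeq2. At the threshold, Cd80 (difference −3.13, adjusted p = 0.04995), Ttll1 (1.25) and Akap1 (1.34) lay just inside, and Pja1 (−0.584, adjusted p = 0.05004), AC151967.1 (0.697) and 6720427I07Rik (−3.72) just outside.

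Genes of macrophages had a lower effect in tumor than in spleen. Of 18 macrophage markers tested, 13 passed, all of them lower, a share of 72.2% against 18.3% of all genes. Against 5608 of all 16831 genes, 14 of the 18 had an unadjusted p under 0.05. DESeq2 called 13 of the 18. Their median was −3.42 for the difference, −2.72 for the tumor effect and 1.14 for the spleen effect, while the median of all genes was −0.0985, −0.117 and 0. The 18 genes together held 1976 to 5651 CPM in tumor cKO, against 14533 to 28777 CPM in tumor WT, with no overlap. They held 820 to 1055 CPM in spleen cKO, against 611 to 624 CPM in spleen WT, again with no overlap but in the other direction. None of the 18 was called for the spleen effect by edgeR, where 8 had an unadjusted p under 0.05, all higher in spleen cKO, and DESeq2 called 2. Over all 16831 genes, 500 were higher in spleen cKO with such a p and 284 lower, and DESeq2 called 46. Without tumor WT replicate 2 the median difference was −2.97 with 12 members lower, and without tumor cKO replicate 3 it was −3.09.

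Cd163, the haemoglobin scavenger receptor of macrophages (GRCm38 chromosome 6, 124304656 to 124330527), had the smallest p of all genes named. It was at 10.3, 11.4 and 8.98 CPM in tumor cKO libraries, against 476, 624 and 741 CPM in tumor WT libraries. In spleen it was at 12.5, 18.8 and 11.3 CPM in spleen cKO libraries, against 7.44, 6.93 and 5.95 CPM in spleen WT libraries. Tumor WT stood far above the other 3 groups, and in each tissue the cKO and WT libraries did not overlap. The tumor effect was −5.91 ± 0.24 and the spleen effect 1.06 ± 0.21 on the log2 scale, the spleen effect not passing on its own (adjusted p = 0.27), and the difference was −6.97 ± 0.31 (SE; adjusted p = 1.17e-07).

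Mrc1, the mannose receptor CD206 (GRCm38 chromosome 2, 14229392 to 14332057), was at 142, 147 and 39.04 CPM in tumor cKO libraries, against 1249.9, 2074 and 1798 CPM in tumor WT libraries. Its spleen level was at 22.01, 34.1 and 21.6 CPM in spleen cKO libraries, against 8.5, 10.4 and 7.18 CPM in spleen WT libraries, higher in every spleen cKO library than in every spleen WT library. The difference was −5.53 ± 0.63 (adjusted p = 0.00102), and the spleen effect did not pass on its own (adjusted p = 0.894). C1qc, a chain of the complement starter C1q, was at 33.7, 31.98 and 11.3 CPM in tumor cKO libraries, against 131, 344 and 183 CPM in tumor WT libraries, and it was at 7.92, 13.2 and 7.1 CPM in spleen cKO libraries, against 1.9, 5.12 and 2.08 CPM in spleen WT libraries. Its difference was −4.70 ± 0.76 (adjusted p = 0.00381), and those of C1qa and C1qb, the other chains, were −4.20 and −4.11. The spleen effect of C1qc did not pass on its own either (adjusted p = 0.983). The growth factor receptor gene Csf1r differed by −3.65 and Lyz2 by −3.36 ± 0.71 (adjusted p = 0.0106). Lyz2 did not pass with voom quality weights (adjusted p = 0.0751, limma).

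Promoter windows of Cd163 and Mrc1 are shown because these receptor genes lead the macrophage markers that moved together. They are from RefSeq on GRCm38.p6, 250 bases before to 50 after the gene start, 5′ to 3′ on the plus strand of each. Capitals mark GAGGAAG, a core of sites of the myeloid factor PU.1, searched on both strands; the Cd163 window holds none, and in the Mrc1 window the matches are on the opposite strand and read CTTCCTC. No match overlapped one of the other 3 motifs described here. The window of Cd163 is chr6:124304401-124304700 and that of Mrc1 chr2:14229164-14229463.
Cd163: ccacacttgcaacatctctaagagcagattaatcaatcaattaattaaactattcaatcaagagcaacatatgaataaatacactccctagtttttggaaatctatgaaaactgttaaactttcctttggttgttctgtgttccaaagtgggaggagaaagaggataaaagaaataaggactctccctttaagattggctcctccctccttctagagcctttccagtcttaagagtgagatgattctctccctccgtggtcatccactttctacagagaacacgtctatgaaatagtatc
Mrc1: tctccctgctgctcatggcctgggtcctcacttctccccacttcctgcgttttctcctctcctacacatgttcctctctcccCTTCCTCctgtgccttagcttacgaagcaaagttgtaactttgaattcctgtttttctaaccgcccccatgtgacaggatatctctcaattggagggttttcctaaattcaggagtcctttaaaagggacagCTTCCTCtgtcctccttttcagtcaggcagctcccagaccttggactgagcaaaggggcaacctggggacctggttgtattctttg
Windows were found for 11 of the 18 marker genes. Of their 14 windows 28.6% held the core, as did 2 of the 10 windows of called members, 13.7% of 13672 windows of tested genes and 13.6% of all 32851 windows. A match describes letters only.

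Of 18 genes of alternatively activated macrophages, the state induced by interleukin-4, 11 passed, all lower (61.1%, against 18.3% of all genes). The median difference was −5.42, and −5.11 with 6 members that lack reads in a group set at the floor of 3 counts per group. Ear2, an eosinophil-associated ribonuclease gene, was at 4.95, 3.61 and 1.78 CPM in tumor cKO libraries, against 62.04, 422 and 83.8 CPM in tumor WT libraries. It was at 4.4, 6.11 and 6.54 CPM in spleen cKO libraries, against 3.26, 1.36 and 2.65 CPM in spleen WT libraries, and the difference was −7.02 ± 1.11 (adjusted p = 0.00384). Igf1, insulin-like growth factor 1, was at 6.75, 9.14 and 2.56 CPM in tumor cKO libraries, against 74.9, 315 and 112 CPM in tumor WT libraries, with a difference of −5.99 ± 0.96. Tumor WT replicate 2 was the highest library for both genes, and both still passed without it. Tmem26, a membrane protein gene, was at 0.598, 0.601 and 0.194 CPM in tumor cKO libraries, against 33.8, 67.2 and 67.6 CPM in tumor WT libraries, and at 1.98, 4.81 and 3.48 CPM in spleen cKO libraries, against 4.7, 4.07 and 2.65 CPM in spleen WT libraries. All 3 tumor WT libraries were above all 3 tumor cKO libraries, the spleen groups overlapped, and the difference was −6.77 ± 0.62. Arg1, encoding the arginine-degrading arginase 1, differed by −2.79 (adjusted p = 0.0154). Atp6v0d2, a macrophage subunit of the proton pump, differed by −4.92 ± 1.45 with tumor WT libraries at 70.0, 426 and 90.3 CPM, and lost the call in 10 of 23 alternatives, 8 of them single libraries left out, with adjusted p between 0.0508 and 0.0978 there.

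**Figure D2:**
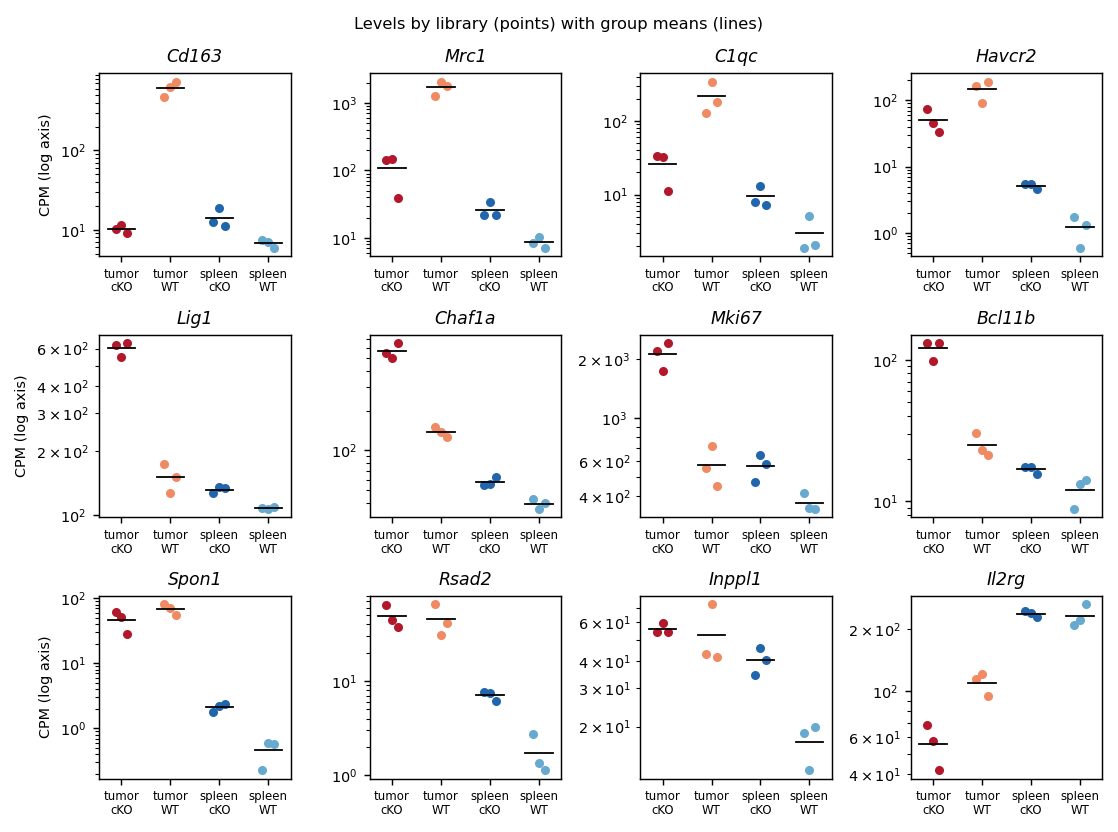
Each panel shows 1 gene, with the 3 libraries of each group as points and the group mean as a line, in CPM on a log axis whose range differs between panels. Tumor WT stands highest for Cd163, Mrc1, C1qc and Havcr2, tumor cKO stands highest for Lig1, Chaf1a, Mki67 and Bcl11b, and for Spon1, Rsad2 and Inppl1 spleen WT lies below spleen cKO.

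Several named genes had log2 effects of opposite sign in tumor and spleen. None of their spleen effects passed on its own, with adjusted p of 0.856 for Hfe, 0.684 for Itgb5, 0.835 for Stx12 and 0.483 for Havcr2. Hfe, which controls iron uptake, was at 4.7, 3.73 and 2.94 CPM in tumor cKO libraries, against 41.4, 90.3 and 48.2 CPM in tumor WT libraries. It was at 1.76, 3.21 and 3.84 CPM in spleen cKO libraries, against 0.759, 1.36 and 1.13 CPM in spleen WT libraries, and the difference was −5.42 ± 0.54 (adjusted p = 0.00047). Trf, the iron carrier transferrin, whose spleen effect had an unadjusted p above 0.05, differed by −5.11 ± 0.94. Itgb5, an integrin chain, had a tumor effect of −2.64 and a spleen effect of 1.69, and Stx12, a syntaxin of endosomes, −0.88 and 0.43. Havcr2, the inhibitory receptor TIM-3 of lymphocytes and myeloid cells, was at 74.97, 44.7 and 32.8 CPM in tumor cKO libraries, against 163, 91.6 and 191 CPM in tumor WT libraries. In spleen it was at 5.43, 5.41 and 4.62 CPM in spleen cKO libraries, against 1.75, 0.602 and 1.32 CPM in spleen WT libraries. It was lower in all tumor cKO than in all tumor WT libraries, and higher in all spleen cKO than in all spleen WT libraries, with a difference of −3.62 ± 0.57 (adjusted p = 0.00302).

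Lysosomal and antigen-presenting genes formed the other large group of falls. Of 32 lysosome genes, 25 (78.1%) passed, all lower, against 18.3% of all genes. Their medians were −1.59 for the difference, −1.79 for the tumor effect and −0.0157 for the spleen effect. Lamp1, a major lysosomal membrane protein, was at 244, 228 and 174 CPM in tumor cKO libraries, against 586, 1015 and 629 CPM in tumor WT libraries. Spleen libraries showed 82.03, 78.3 and 80.7 CPM in spleen cKO libraries, against 75.8, 78.1 and 75.3 CPM in spleen WT libraries. The tumor cKO libraries were far below tumor WT, the spleen groups were separated by less than 1 CPM, and the difference was −1.86 ± 0.26 (adjusted p = 0.00155). The cathepsin protease genes Ctsb (−3.15), Ctsl (−4.40) and Ctsd (−2.57) and the cholesterol exporter Npc2 (−1.70) passed as well. MHC class II genes, which present antigen to CD4 T cells, passed for 8 of 12 (66.7%), all lower, with a median of −1.75. H2-Aa, the alpha chain of I-A, was at 204, 162 and 91.2 CPM in tumor cKO libraries, against 484, 639 and 619 CPM in tumor WT libraries, and it was at 309, 319 and 305 CPM in spleen cKO libraries, against 353, 383 and 347 CPM in spleen WT libraries. Complement genes passed for 7 of 18 (38.9%), all lower, with a median of −1.73, or −2.33 with the member lacking reads set at the floor. Macrophages hold high levels of these gene groups, and the summed macrophage markers given above moved in the same direction in tumor. Their part in these results was not tested.

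Genes of DNA replication had a higher effect in tumor than in spleen. Of 40 S phase genes, 27 passed, all higher, a share of 67.5% against 18.3% of all genes. Against 5608 of all 16831 genes, 35 of the 40 had an unadjusted p under 0.05. DESeq2 called 28 of the 40. Medians were 1.25 for the difference, 1.41 for the tumor effect and 0.191 for the spleen effect. Their summed level was 4828 to 6403 CPM in tumor cKO, against 1501 to 2034 CPM in tumor WT, and 1607 to 1681 CPM in spleen cKO, against 1372 to 1422 CPM in spleen WT. The cKO and WT libraries did not overlap in either tissue. Without tumor WT replicate 2 the count was 31 and the median 1.42, and without tumor cKO replicate 3 the median was 1.11. The summed macrophage markers also moved between the tumor groups, as did the summed T cell genes given further on, and their part in the results on replication, mitosis, repair and growth was not tested.

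Lig1, the ligase that joins Okazaki fragments (GRCm38 chromosome 7, 13277283 to 13311433), was at 621, 549 and 639 CPM in tumor cKO libraries, against 173, 127 and 151 CPM in tumor WT libraries. It was at 127, 135 and 133 CPM in spleen cKO libraries, against 108, 107 and 109 CPM in spleen WT libraries. The cKO libraries were the higher in both tissues, without overlap, and the tumor step was the larger. The tumor effect was 2.01 ± 0.12, the spleen effect 0.29 ± 0.12 (adjusted p = 1, not passing) and the difference 1.72 ± 0.17 (adjusted p = 0.00047). Chaf1a, a subunit of the histone chaperone CAF-1 (GRCm38 chromosome 17, 56040416 to 56068026), was at 548, 501 and 651 CPM in tumor cKO libraries, against 150.1, 138 and 126 CPM in tumor WT libraries. Its spleen values were 54.96, 55.9 and 62.8 CPM in spleen cKO libraries, against 42.7, 35.99 and 39.8 CPM in spleen WT libraries, again without overlap, and the difference was 1.49 ± 0.18 (adjusted p = 0.000854). The helicase subunit genes Mcm5 (1.66) and Mcm2 (1.497), the ribonucleotide reductase gene Rrm1 (1.46) and the primase gene Prim1 (1.67) also passed.

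Of 35 genes of G2 phase and mitosis, 13 passed, all higher, a share of 37.1% against 18.3% of all genes. Their medians were 1.13 for the difference, 1.54 for the tumor effect and 0.454 for the spleen effect. In spleen 33 of the 35 had a positive log2 value, against 48.8% of all genes. None was called there by edgeR or DESeq2, and 12 had an unadjusted p under 0.05, all higher. Over all 16831 genes, 500 were higher in spleen cKO with such a p. Mki67, the proliferation antigen Ki-67 (GRCm38 chromosome 7, 135689784 to 135716361), was at 2186, 1746 and 2417 CPM in tumor cKO libraries, against 556, 715 and 447 CPM in tumor WT libraries. It was at 472, 649 and 584 CPM in spleen cKO libraries, against 414, 346 and 343 CPM in spleen WT libraries. The cKO libraries lay above the WT libraries in both tissues, and the difference was 1.26 ± 0.26 (adjusted p = 0.00644). Incenp, a subunit of the chromosomal passenger complex, differed by 1.14 ± 0.16, and Rad51ap1, a protein of homologous recombination, by 1.79 ± 0.26. The count of G2 and mitosis genes was 9 to 25 when single libraries were left out, highest without tumor WT replicate 2, where 1 gene was also called lower.

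The windows of Chaf1a and Mki67 are shown because both genes were higher in the cKO libraries of both tissues. In Chaf1a (chr17:56040166-56040465, plus strand) capitals mark the 3 matches to TTNNCGC, a core of E2F sites, and in Mki67 (chr7:135716330-135716629, minus strand) the 2 matches to TTTGAA, the CHR element of cell cycle genes, each searched on both strands. No match overlapped another motif.
Chaf1a: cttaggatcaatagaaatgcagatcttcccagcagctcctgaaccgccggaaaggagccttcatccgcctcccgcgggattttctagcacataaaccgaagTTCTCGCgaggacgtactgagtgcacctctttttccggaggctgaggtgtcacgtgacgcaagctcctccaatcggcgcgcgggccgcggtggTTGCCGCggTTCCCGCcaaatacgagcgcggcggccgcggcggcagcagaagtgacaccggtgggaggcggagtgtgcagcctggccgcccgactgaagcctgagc
Mki67: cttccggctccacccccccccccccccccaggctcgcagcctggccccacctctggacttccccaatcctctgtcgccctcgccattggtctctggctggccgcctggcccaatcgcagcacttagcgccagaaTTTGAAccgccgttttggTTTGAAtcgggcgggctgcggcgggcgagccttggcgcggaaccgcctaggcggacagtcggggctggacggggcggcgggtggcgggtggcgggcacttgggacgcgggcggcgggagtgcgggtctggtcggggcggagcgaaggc
Of 36 windows of 31 S phase genes 80.6% held the E2F core, as did 76.0% of the windows of called members, 30.1% of windows of tested genes and 20.2% of all windows. The CHR element was in 76.7% of 30 windows of 28 G2 and mitosis genes, in 77.8% of those of called members, in 12.7% of windows of tested genes and in 17.9% of all. The E-box CACGTG, bound by MYC, was in 14.3% of 28 windows of growth genes, in 18.8% of those of called members, in 9.5% of tested and 7.2% of all.

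DNA break repair genes passed for 15 of 26 (57.7%, against 18.3% of all genes), all higher, with a median of 1.19. Xrcc6, which encodes the end-binding protein Ku70, was at 248, 173 and 264 CPM in tumor cKO libraries, against 46.1, 57.3 and 37.9 CPM in tumor WT libraries. In spleen it was at 54.3, 48.2 and 68.3 CPM in spleen cKO libraries, against 51.1, 57.0 and 52.5 CPM in spleen WT libraries, where the groups overlapped, and the difference was 2.18 ± 0.27 (adjusted p = 0.000854). The listed span of Xrcc6 holds that of Desi1, which is described further on. Bard1, the partner of BRCA1, had a tumor effect of 1.99 and a spleen effect of −0.65 that did not pass. Msh6, of mismatch recognition, differed by 1.33 ± 0.17.

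Growth and biosynthesis genes had smaller median differences. Of 28 MYC-related growth and ribosome biogenesis genes 16 passed higher and 1, Eif4a1 (−0.53), lower, with a median of 0.799. This is a share of 60.7%, against 18.3% of all genes. Dkc1, the pseudouridine synthase dyskerin, was at 111, 97.03 and 128 CPM in tumor cKO libraries, against 34.2, 41.5 and 28.4 CPM in tumor WT libraries, and at 103, 92.4 and 99.7 CPM in spleen cKO libraries, against 103, 87.6 and 90.8 CPM in spleen WT libraries. Its difference was 1.62 ± 0.21 (adjusted p = 0.00101), that of the nucleolar phosphoprotein gene Nolc1 was 1.10 ± 0.16, and that of Myc itself 0.87. Serine and one-carbon genes passed for 9 of 17 higher and 1 lower, a share of 58.8%. Phgdh, the first enzyme of serine synthesis, was at 351, 319 and 460.5 CPM in tumor cKO libraries, against 115, 140.2 and 115 CPM in tumor WT libraries, and at 124, 106 and 103 CPM in spleen cKO libraries, against 98.3, 115 and 99.2 CPM in spleen WT libraries. Phgdh and the mitochondrial serine enzyme gene Shmt2 differed by 1.52 ± 0.21 and 1.44 ± 0.23. Cholesterol synthesis genes passed for 6 of 21 (28.6%), all higher, among them Cyp51 (1.17 ± 0.28). That count was 12 without tumor WT replicate 2 and 3 without spleen cKO replicate 2, tumor cKO replicate 3 or tumor WT replicate 1. Of 39 nuclear genes of oxidative phosphorylation 6 passed and of 48 cytosolic ribosomal protein genes 2, among them Rpl14 (0.61 ± 0.16), shares of 15.4% and 4.17%, below the 18.3% of all genes. The oxidative phosphorylation count was 3 without spleen cKO replicate 1, spleen WT replicate 2, tumor cKO replicate 3 or tumor WT replicate 3. The ribosomal protein count was 4 higher and 3 lower without tumor WT replicate 2, and 1 without spleen cKO replicate 1 or spleen WT replicate 3. Glycolysis and hypoxia genes passed for 1 higher and 4 lower of 26, a share of 19.2% near that of all genes (2 lower without spleen cKO replicate 1 or spleen WT replicate 1, 2 higher without spleen cKO replicate 2 or tumor WT replicate 2), with the glucose transporter gene Slc2a3 at 1.27 ± 0.24 and the angiogenic factor gene Vegfa at −1.79 ± 0.27.

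**Figure D3:**
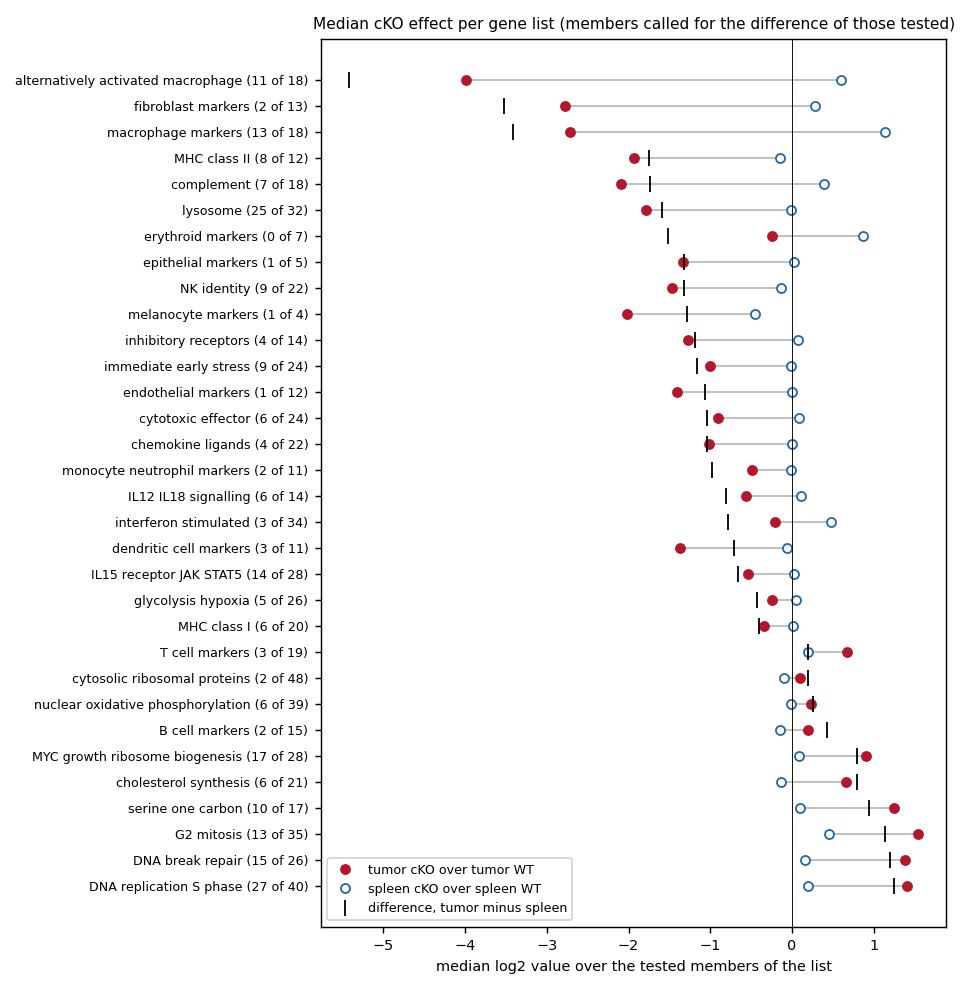
Each row is a gene list, labelled with the number of members called for the difference of those tested; filled points are median log2 effects in tumor, open points those in spleen and ticks the median difference. Macrophage lists lie at the left with medians down to −5.42, together with the fibroblast list at −3.52. Lists of DNA replication, break repair and mitosis lie at the right between 1.13 and 1.25, and spleen medians lie between −0.448 and 1.14.

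NK cell genes were lower in tumor cKO than in tumor WT for 15 of the 22 NK identity genes, where 21.6% of all genes were called lower. For the difference 8 of the 22 passed lower and 1, Gata3 (1.25), higher, a share of 40.9% against 18.3% of all genes. Medians of the 22 genes were −1.32 for the difference, −1.47 for tumor and −0.133 for spleen. Their summed level was 265 to 359 CPM in tumor cKO, against 696 to 814 CPM in tumor WT, and 1633 to 1862 CPM in spleen cKO, against 1632 to 2034 CPM in spleen WT. Ncr1, Klrb1c and Klra9 had means of 1.75, 4.39 and 4.52 CPM in tumor WT, a small part of that sum. The list also holds genes that macrophages express, such as Fcer1g and Tyrobp. Summed macrophage markers moved in the same direction in tumor, and their part in this result was not tested. Klra9, an inhibitory receptor of the Ly49 family, was at 0.47, 0.902 and 0.31 CPM in tumor cKO libraries, against 5.76, 3.1 and 4.7 CPM in tumor WT libraries. It was at 43.7, 45.2 and 51.3 CPM in spleen cKO libraries, against 51.4, 50.7 and 68.7 CPM in spleen WT libraries, and the difference was −2.77 ± 0.42 (adjusted p = 0.00196). Klra9 belongs to a family of near-identical genes between which reads may be split. Cd244, the receptor 2B4, differed by −1.98 ± 0.41, and Tbx21, encoding the transcription factor T-bet, by −1.73. Ncr1 missed the threshold (−1.16 ± 0.38, adjusted p = 0.0503), as did Klrb1c, which encodes NK1.1 (−1.55 ± 0.65, adjusted p = 0.119). Ncr1 passed in 7 of 23 alternatives and Klrb1c in 4. The count of NK identity genes called lower was 13 without tumor WT replicate 2, 3 without spleen WT replicate 2, 4 without spleen cKO replicate 2 or 3, spleen WT replicate 1 or tumor cKO replicate 3, and 5 without tumor cKO replicate 2 or tumor WT replicate 3. Ncr1 lay at 0.421 to 1.86 CPM in the 6 tumor libraries, and the differences of Ncr1, Klrb1c and Klra9 rest on low tumor levels. Cd244 had means of 7.71 CPM in tumor cKO and 30.6 CPM in tumor WT.

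Of the receptor chains of interleukin-15, Il2rg passed for the difference and the other chains did not. Il2rg, the common gamma chain, was at 68.5, 57.4 and 41.6 CPM in tumor cKO libraries, against 115, 121 and 95.5 CPM in tumor WT libraries. In spleen it was at 245, 238 and 229 CPM in spleen cKO libraries, against 210.1, 222 and 264 CPM in spleen WT libraries. The tumor groups did not overlap and the spleen groups did, and the difference was −1.02 ± 0.23 (adjusted p = 0.0106). Il2rb, the beta chain, was at 22.1, 32.2 and 27.1 CPM in tumor cKO libraries, against 106, 27.98 and 84.6 CPM in tumor WT libraries, with tumor WT replicate 2 inside the range of tumor cKO. Its spleen levels were 217, 212 and 183 CPM in spleen cKO libraries, against 198, 182 and 242 CPM in spleen WT libraries, and the difference of −1.40 ± 0.51 did not pass (adjusted p = 0.0797), though it did in 6 of 23 alternatives, among them the one without tumor WT replicate 2 (adjusted p = 0.000217). Il15ra, the alpha chain, was at 9.44, 8.42 and 8.37 CPM in tumor cKO libraries, against 7.62, 5.25 and 5.06 CPM in tumor WT libraries, and at 2.71, 1.1 and 4.19 CPM in spleen cKO libraries, against 5.99, 3.09 and 4.72 CPM in spleen WT libraries. Its difference of 1.31 ± 0.56 did not pass either (adjusted p = 0.119).

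In the list of 28 genes of the interleukin-15 receptor and JAK-STAT5 signalling, 14 (50%) passed, against 18.3% of all genes. Of these 14, 12 were lower and 2 higher, and the median of the list was −0.660. Stat3, a transcription factor of several cytokine receptors, was at 152, 129 and 122 CPM in tumor cKO libraries, against 317, 273 and 303 CPM in tumor WT libraries. It was at 138, 139.8 and 141 CPM in spleen cKO libraries, against 121, 134 and 133 CPM in spleen WT libraries, and the difference was −1.26 ± 0.15 (adjusted p = 0.000854). The kinase genes Jak1 (−0.87) and Jak3 (−0.91), the adaptor gene Gab2 (−1.16 ± 0.20), the feedback inhibitor gene Cish (−1.75) and the survival gene Mcl1 (−0.63) were lower. Ccnd2 (0.94), a D-type cyclin, and Myc were higher. Ptpn6, the phosphatase SHP-1, was at 359, 487 and 441 CPM in tumor cKO libraries, against 373, 428 and 321 CPM in tumor WT libraries, and its difference was 0.18 ± 0.19 (adjusted p = 0.544). Of 14 genes of interleukin-12 and interleukin-18 signalling 6 (42.9%) passed, all lower, among them Jak2 (−1.25 ± 0.23). Many of these signalling genes are also used by macrophages, whose marker sums differed as given above, and that part was not tested.

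Cytotoxic effector genes passed for 6 of 24, all lower, a share of 25% against 18.3% of all genes. The lower count was 4 to 12 without single libraries, and 12 without tumor WT replicate 2. The list shares Lamp1 with the lysosome genes. Summed macrophage markers moved in the same direction in tumor, and their part in this result was not tested. Srgn, the granule proteoglycan serglycin, was at 476, 405 and 339.6 CPM in tumor cKO libraries, against 918, 638 and 917 CPM in tumor WT libraries, and its difference was −1.08 ± 0.22. Gzmb, the killing protease granzyme B, differed by −2.16 (adjusted p = 0.0325), with a tumor effect of −1.49 and a spleen effect of 0.67 that did not pass. The list of inhibitory receptor genes also holds Tox, which encodes a transcription factor and no receptor. Of its 14 genes 4 passed, a share of 28.6% against 18.3% of all genes. Havcr2 and Vsir (−1.71 ± 0.33) were lower, and Tox (1.61) and Btla (1.32) higher. The count of lower genes was 7 with DESeq2 and 4 with the replicate block or without spleen WT replicate 3, and that of higher genes was 2 in each. Pdcd1, the receptor PD-1, was at 132, 150.4 and 186 CPM in tumor cKO libraries, against 59.02, 52.5 and 55.99 CPM in tumor WT libraries. Spleen libraries held 0, 1.7 and 1.14 CPM in spleen cKO libraries, against 0.303, 0 and 1.89 CPM in spleen WT libraries, too few reads for its difference of 1.06 ± 1.19 to be read (adjusted p = 0.583). Immediate early genes passed for 9 of 24 (37.5%, against 18.3% of all genes), all lower, among them Fosb (−1.84 ± 0.36) and Junb (−1.30 ± 0.30). That count was 4 without spleen cKO replicate 1 or 3 or spleen WT replicate 1 or 2, and 5 without tumor WT replicate 1. Chemokine ligand genes passed for 4 of 22, all lower, a share of 18.2% that is near the 18.3% of all genes. Ccl9 differed by −3.90 ± 0.75 and Ccl6 by −3.71 ± 0.82, and neither passed with voom weights (adjusted p = 0.127 and 0.212, limma).

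Of 19 T cell genes tested, 3 passed, all higher, a share of 15.8% below the 18.3% of all genes, and the median was 0.189. DESeq2 called 5 higher and 5 lower. Without tumor WT replicate 2 the counts were 4 higher and 4 lower, and 2 were called lower without tumor cKO replicate 3. Bcl11b, the transcription factor of T cell commitment, was at 132, 98.5 and 131 CPM in tumor cKO libraries, against 30.2, 22.9 and 21.2 CPM in tumor WT libraries. It was at 17.5, 17.3 and 15.5 CPM in spleen cKO libraries, against 8.8, 13.3 and 14.1 CPM in spleen WT libraries, and the difference was 1.80 ± 0.28 (adjusted p = 0.00219). Thy1 differed by 1.40 ± 0.19 and the kinase gene Lck by 0.85. Cd3e, a signalling chain of the T cell receptor, was at 39.5, 38.6 and 55.3 CPM in tumor cKO libraries, against 34.4, 25.9 and 23.1 CPM in tumor WT libraries, and at 19.1, 35.6 and 17.8 CPM in spleen cKO libraries, against 14.1, 13.5 and 16.6 CPM in spleen WT libraries. Its effects were 0.68 in tumor and 0.71 in spleen, and the difference was −0.027 (adjusted p = 0.992). The T cell genes together held 1576 to 2090.2 CPM in tumor cKO, against 677 to 876 CPM in tumor WT, and 1081 to 1160 CPM in spleen cKO, against 1043 to 1148 CPM in spleen WT. The tumor groups did not overlap and the spleen groups did.

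**Figure D4:**
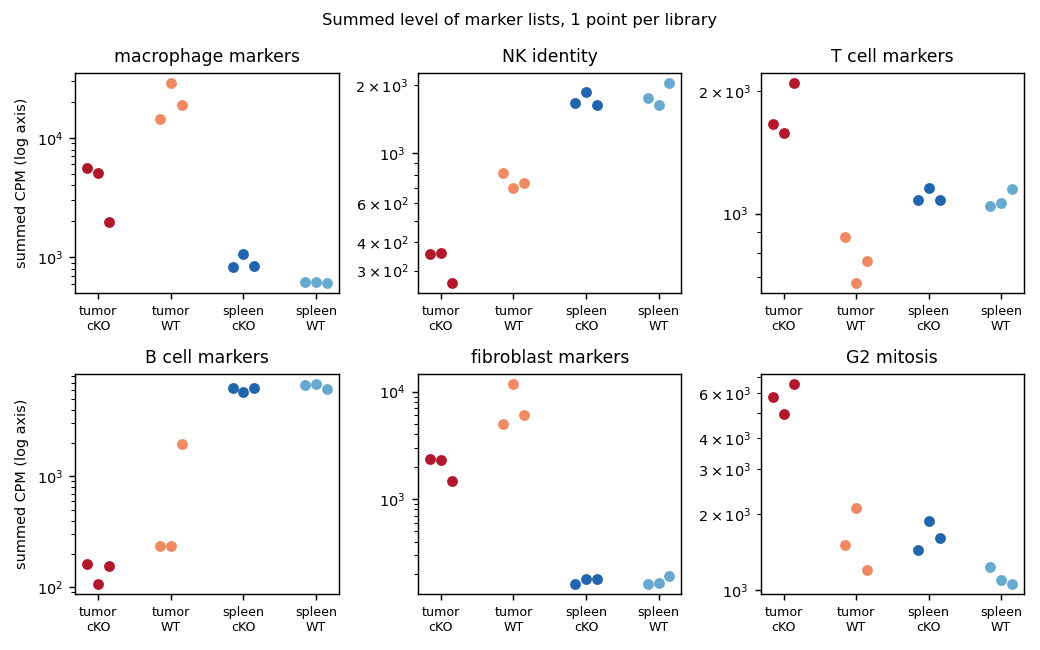
Each panel sums the CPM of 1 gene list per library, on a log axis whose range differs between panels, for tumor cKO, tumor WT, spleen cKO and spleen WT from left to right. CPM in these sums is scaled to library totals only. Macrophage, NK and fibroblast sums are lower in all tumor cKO than in all tumor WT libraries, T cell and mitosis sums are higher, and tumor cKO replicate 3 is the extreme library of its group for macrophage, NK, T cell, fibroblast and mitosis sums.

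Lists of other cell types gave low counts, with shares on both sides of the 18.3% of all genes. The shares were 27.3% for dendritic cell, 25% for melanocyte, 20% for epithelial and 15.4% for fibroblast genes. They were 13.3% for B cell, 8.33% for endothelial and 0% for erythroid genes. Fibroblast genes passed for 2 of 13, the matrix gene Fn1 lower (−3.58 ± 0.72) and Thy1 higher, with a median of −3.52 that was −1.39 without tumor WT replicate 2 and −2.69 with 3 members at the floor. Fn1 did not pass with voom quality weights (adjusted p = 0.132, limma). Dendritic cell genes passed for 3 of 11, all lower, among them Batf3 (−2.74 ± 0.66) and Irf8 (−1.39 ± 0.36), monocyte and neutrophil genes for 2 of 11 (18.2%, near the share of all genes), endothelial genes for 1 of 12 (Pecam1, −1.26 ± 0.21) and epithelial genes for 1 of 5. The monocyte and neutrophil count was 0 without spleen cKO replicate 2, spleen WT replicate 3 or tumor WT replicate 2, and 1 without any 1 of 6 other libraries. The epithelial count was 2 without tumor cKO replicate 1 or tumor WT replicate 1. B cell genes passed for 1 higher (Ighd, 2.39 ± 0.47) and 1 lower (Blnk, −2.58 ± 0.46) of 15. The higher count was 5 without tumor WT replicate 2, 3 without tumor cKO replicate 3, 2 without tumor cKO replicate 2 and 3 with DESeq2, and the lower count 2 without tumor cKO replicate 1 or tumor WT replicate 1 or 2. Melanocyte genes passed for 1 of 4, Pmel (−1.69), and for none when any 1 of 5 libraries was left out. Among 7 erythroid genes edgeR called none, 2 had an unadjusted p under 0.05 and DESeq2 called 1; Hba-a1, an alpha globin gene, differed by −1.60 ± 0.61 (adjusted p = 0.0839).

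The spleen effect was the one with an unadjusted p under 0.05 for 65 of the called genes. Inppl1, the lipid phosphatase SHIP2, was at 54.4, 59.5 and 53.99 CPM in tumor cKO libraries, against 43.03, 72.6 and 41.6 CPM in tumor WT libraries. In spleen it was at 34.6, 46.0 and 40.4 CPM in spleen cKO libraries, against 18.7, 12.6 and 19.8 CPM in spleen WT libraries. The tumor groups overlapped, the spleen groups did not, and the difference was −1.15 ± 0.32 (adjusted p = 0.024), a call lost in 7 of 23 alternatives, among them those without spleen cKO replicate 2 or 3 or spleen WT replicate 2. Spon1, the matrix protein spondin 1, was at 61.95, 51.2 and 27.96 CPM in tumor cKO libraries, against 81.6, 71.1 and 55.3 CPM in tumor WT libraries. It was at 1.76, 2.21 and 2.42 CPM in spleen cKO libraries, against 0.228, 0.602 and 0.567 CPM in spleen WT libraries, without overlap in spleen, and its difference was −2.75 ± 0.52 (adjusted p = 0.00484). Rsad2, the antiviral enzyme viperin, was at 64.7, 43.9 and 37.2 CPM in tumor cKO libraries, against 65.4, 31.1 and 41.3 CPM in tumor WT libraries. In spleen libraries it was at 7.7, 7.42 and 6.11 CPM in spleen cKO libraries, against 2.73, 1.36 and 1.13 CPM in spleen WT libraries, again without overlap, with a difference of −1.92 ± 0.48 (adjusted p = 0.017). Apaf1, the scaffold of the apoptosome, had a tumor effect of −0.28 and a spleen effect of 0.40, and its call was lost in 9 of 23 alternatives, among them those without spleen cKO replicate 2 or 3, spleen WT replicate 1 or tumor cKO replicate 2. The call of Rsad2 was lost without spleen WT replicate 2 (adjusted p = 0.0511). That of Spon1 was lost with voom quality weights (adjusted p = 0.0713, limma), and it had 17 reads in spleen WT in total. None of these spleen effects passed on its own, with adjusted p of 0.202 for Inppl1, 0.298 for Spon1, 0.217 for Rsad2 and 0.929 for Apaf1.

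Interferon-stimulated genes had a median of −0.213 in tumor and 0.471 in spleen. In spleen 32 of 34 were positive, against 48.8% of all genes. For the spleen effect edgeR called none and DESeq2 called 1. An unadjusted p under 0.05 was seen for 8 of the 34, all higher in spleen cKO. Over all 16831 genes, 500 were higher in spleen cKO with such a p. The median difference was −0.784, and 3 of the 34 passed, Rsad2, Irf9 (−1.07) and Dhx58 (−1.47 ± 0.38), all lower. The count was 7 without tumor cKO replicate 1 and 1 without spleen cKO replicate 3. The reported share of 8.82% is below the 18.3% of all genes. MHC class I genes passed for 4 lower and 2 higher of 20, a share of 30% against 18.3% of all genes. The higher count was 1 in 9 of the 12 fits without a single library. H2-T23 (−0.97 ± 0.20), H2-D1 (−1.05) and H2-K1 (−1.09) were lower and H2-Q2 higher. H2-Q2, a non-classical member of a family of near-identical genes, was at 56.2, 30.7 and 58.1 CPM in tumor cKO libraries, against 4.71, 6.01 and 3.44 CPM in tumor WT libraries, and its difference was 3.44 ± 0.56; reads may be split between such copies.

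Several of the higher differences were in genes of varied function. Amy1, salivary amylase, was at 94.02, 20.5 and 24.8 CPM in tumor cKO libraries, against 1.34, 0.423 and 1.69 CPM in tumor WT libraries, and at 3.89, 5.21 and 2.84 CPM in spleen cKO libraries, against 2.96, 3.16 and 3.78 CPM in spleen WT libraries, so that tumor cKO stood above the other groups with replicate 1 the highest library. Its difference was 5.16 ± 0.89 (adjusted p = 0.00417), and it did not pass with voom quality weights (adjusted p = 0.134, limma). Desi1, a protease of the SUMO pathway, was at 59.5, 34.7 and 57.9 CPM in tumor cKO libraries, against 11.2, 15.8 and 10.1 CPM in tumor WT libraries. It was at 10.3, 10.6 and 10.5 CPM in spleen cKO libraries, against 14.6, 15.1 and 15.9 CPM in spleen WT libraries, lower in every spleen cKO than in every spleen WT library, and the difference was 2.56 ± 0.31 (adjusted p = 0.000854). The listed span of Desi1 (GRCm38 chromosome 15, 81992523 to 82033862) lies within that of Xrcc6 (81987835 to 82040085). Whether reads were shared between them was not tested. Atp6v1g3, a proton pump subunit gene, had a tumor effect of 1.59 ± 0.29 and a spleen effect of −1.42 ± 0.40, Zfp280b, a zinc finger gene, 1.47 ± 0.18 and −0.44 ± 0.19, and Cxxc5, a CpG-binding protein gene, 1.59 ± 0.23 and −0.49 ± 0.22. None of the spleen effects of Desi1, Atp6v1g3, Zfp280b and Cxxc5 passed on its own. Dctpp1, which clears modified nucleotides, differed by 2.52 ± 0.42, Ccdc18 by 2.77 ± 0.39 and Cand2 by 2.80 ± 0.73.

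**Figure D5:**
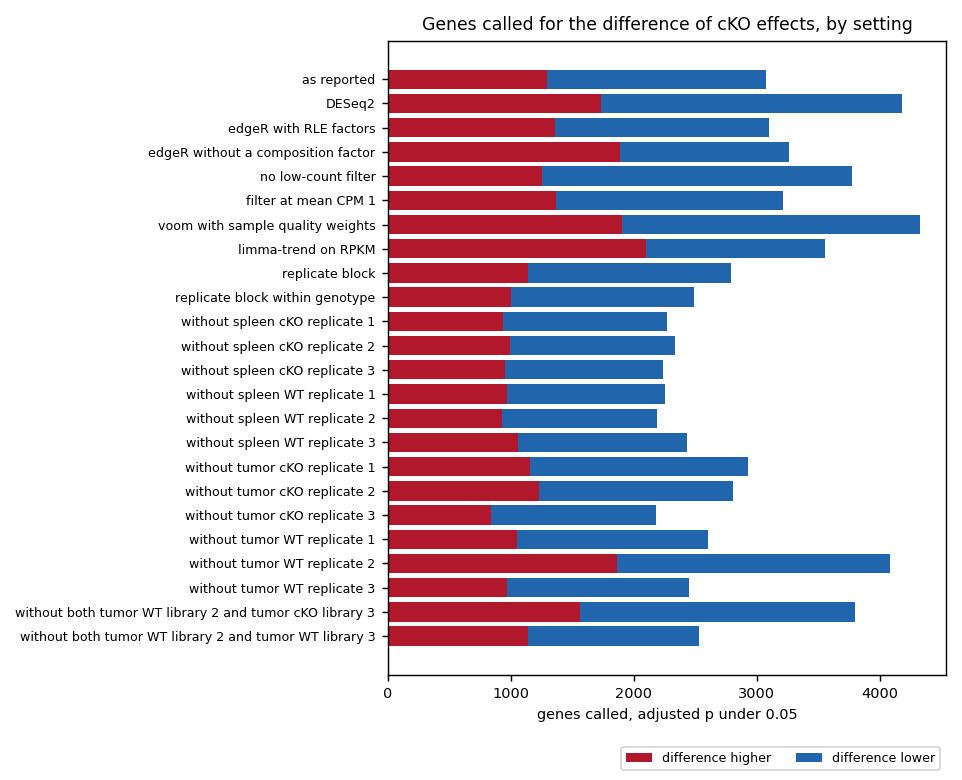
Bars count the genes called for the difference under the reported setting (top) and 23 alternatives, split into genes called higher and lower. The count lies between 2180 without tumor cKO replicate 3 and 4327 with voom quality weights, and is 3072 as reported.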

How the data were processed

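RNA was sequenced on an Illumina NovaSeq, per the labels, and reads were mapped to mm10 with TopHat2 2.0.6, per the submitters' processing notes. No source used here names the counting program, its strand setting or read filters. The authors deposited whole-number counts for 33100 genes without normalization, and RPKM values, which are counts scaled to gene length and library total. Between 68.8% and 73.3% of counts from 1 to 49 were even, as when both mates are counted. Counts were analysed with edgeR 4.0.16 in R 4.3.3 (quasi-likelihood F-test, robust, two-sided, TMM factors, filterByExpr, 16831 genes, 1 mean per group, 8 residual degrees of freedom, common dispersion 0.0801). All gene p-values are from edgeR with Benjamini-Hochberg adjustment over all genes tested unless another tool is named. The difference was the contrast of tumor cKO minus tumor WT, minus that of spleen. TMM factors were 1.032 to 1.055 in tumor cKO, 0.896 to 0.955 in tumor WT, 1.018 to 1.046 in spleen cKO and 1.008 to 1.022 in spleen WT. Values are log2 ± SE. The precision of a library is set by its total, from 9542329 to 37118494 counts. A floor of 3 counts per group equals 0.0455 CPM in tumor cKO, 0.0433 in tumor WT, 0.0796 in spleen cKO and 0.0810 in spleen WT, and covers counting error only. Libraries of a group differed by more than sampling noise (chi-square per degree of freedom at least 6.38). Neither the floor nor this value was adjusted for both mates being counted. Same-numbered libraries did not deviate together (0 of 18 correlations over 0.1), which does not exclude a shared animal or batch. The labels do not say that a number marks a shared animal, so numbers were not used as pairs in the reported fit. Gene coordinates are those of the count table. The fit was tested on simulated data.

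Named were called genes with mean log2 CPM of at least 2 and at least 1 CPM in each tissue, leaving out predicted models, pseudogenes and receptor segments. The 8 largest differences in each direction were taken, the 4 of smallest p in each class, the 2 of smallest p in each of 32 gene lists, and 10 genes named outright. Other list members in the text were chosen after their values were seen. Members and lists were chosen with earlier results of these data known. Alternatives were DESeq2 1.42.0, limma 3.58.1 (voom with quality weights, and limma-trend on log2(RPKM + 0.1)), other factors and filters, replicate blocks and left-out libraries. The level of the targeted gene and the values of some genes that this rule took are not reported here, and genotype labels were not checked against it.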

Additional observations from a re-analysis of the deposited data

Results flagged for a closer look

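The cKO effect differed between tumor and spleen by the edgeR test of the difference itself for each gene below, and each value is the log2 difference, tumor minus spleen. Because genes were named from among those called, their number is no evidence.

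Among genes of macrophages, iron handling, matrix and chemokines the differences were Ear2 −7.02, Cd163 −6.97, Tmem26 −6.77, Igf1 −5.99, Mrc1 −5.53, Hfe −5.42, Trf −5.11, Atp6v0d2 −4.92, C1qc −4.70, Itgb5 −4.33, Ccl9 −3.90, Ccl6 −3.71, Havcr2 −3.62, Fn1 −3.58, Lyz2 −3.36 and Cfp −3.36. F10, the coagulation factor X gene, had no reads in the 3 spleen WT libraries, so its fitted difference of −7.98 depends on the prior count and is no bound. For lysosome, antigen presentation and other immune or vessel genes they were Batf3 −2.74, Blnk −2.58, Ifi30 −2.35, Lamp1 −1.86, H2-Aa −1.72, Vsir −1.71, Npc2 −1.70, Ccr2 −1.46, Irf8 −1.39, Pecam1 −1.26 and H2-T23 −0.97. Genes of NK cells, cytokine signalling and immediate early response, with Stx12 and Vegfa, had Klra9 −2.77, Cd244 −1.98, Fosb −1.84, Vegfa −1.79, Stx12 −1.30, Junb −1.30, Stat3 −1.26, Jak2 −1.25, Gab2 −1.16, Srgn −1.08 and Il2rg −1.02. The genes whose spleen effect had the smaller p, with Dhx58, had Spon1 −2.75, Rsad2 −1.92, Dhx58 −1.47, Inppl1 −1.15 and Apaf1 −0.68. 

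Higher differences were found in genes of replication, mitosis and repair, with Incenp 1.14, Mki67 1.26, Msh6 1.33, Chaf1a 1.49, Lig1 1.72, Rad51ap1 1.79, Xrcc6 2.18 and Bard1 2.64. Growth and metabolism genes had Rpl14 0.61, Atp5b 0.77, Ndufa10 0.88, Nolc1 1.10, Cyp51 1.17, Slc2a3 1.27, Shmt2 1.44, Phgdh 1.52 and Dkc1 1.62. The lymphocyte genes had Thy1 1.40, Bcl11b 1.80 and Ighd 2.39. The remaining genes had Zfp280b 1.92, Cxxc5 2.08, Dctpp1 2.52, Desi1 2.56, Ccdc18 2.77, Cand2 2.80, Atp6v1g3 3.01, H2-Q2 3.44 and Amy1 5.16. 

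Among sex-linked genes, chosen after their values were seen, the called differences were Uty −1.78, Ddx3y −1.76, Kdm5d −1.68 and Eif2s3x 0.74.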

How the results depend on the processing

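Every one of the 75 named genes called for the difference kept its sign in all 23 alternatives, and 57 kept the call in all of them. The 18 that lost it somewhere included F10 in 11, Atp6v0d2 in 10, Apaf1 in 9, Ccr2 and Inppl1 in 7 each. The count of genes called, 3072 as reported, was 2490 to 4327 under alternatives other than left-out libraries, and 2180 to 4088 without single libraries. Genes called higher numbered 838 to 1860 without single libraries and 2102 with limma-trend on RPKM, whose share of higher calls was 59.1%, against 42.1% as reported, 58.0% without a composition factor and 33.2% without a filter. Genes called lower numbered 1261 to 2228 without single libraries. The tumor count was 4461 to 6715 without single libraries, against 6399. The spleen count of 5 was 46 with DESeq2, 230 without a filter, 8 with voom, 10 with limma-trend on RPKM, 34 when tumor cKO replicate 3 and tumor WT replicate 2 were left out together, 8 when tumor WT replicates 2 and 3 were, which leaves 1 tumor WT library assumed to vary like the others, and 0 to 8 without single libraries. With the replicate block 2792 genes were called for the difference and 2 for spleen, and with the block within genotype 2490. Deviations of same-numbered libraries from their group means correlated at −0.113 to 0.0687. With 3 libraries per group, this cannot show whether they share an animal or a batch. Medians of lists that changed sign were 0.126 for monocyte and neutrophil genes without spleen cKO replicate 2 (range without single libraries −1.36 to 0.126), −0.187 for B cell genes without tumor cKO replicate 1 (range −0.187 to 0.881), −0.103 and −0.0198 for T cell genes without spleen cKO replicate 3 and tumor cKO replicate 3 (range −0.103 to 0.363), 0.340 for endothelial genes with voom, and for epithelial genes 0.859 with voom, 0.601 without tumor WT replicate 2 (range −2.71 to 0.601), 1.05 without it and tumor cKO replicate 3, and 0.280 without it and tumor WT replicate 3. Signs also turned for genes that were not called. Cd3e was 0.128 without a composition factor, 0.200 with RPKM, 0.0349 with the block within genotype, and −0.215 to 0.357 without single libraries, positive in 6 of them. Pdcd1 was −1.03 without spleen WT replicate 3 (range −1.03 to 1.70), and Kdm5c was 0.0213 without a composition factor and 0.0221 with RPKM. The causes were not tested. Spleen libraries, at 9542329 to 13753737 counts, limit what can be read of low genes there.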

Other observations

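Genes of the Y chromosome, chosen after their values were seen, also differed between the tissues. Ddx3y, an RNA helicase gene, was at 40.4, 28.8 and 13.7 CPM in tumor cKO libraries, against 100.3, 95.97 and 91.6 CPM in tumor WT libraries. It was at 133, 90.1 and 106 CPM in spleen cKO libraries, against 117, 114 and 107 CPM in spleen WT libraries, and the difference was −1.76 ± 0.40 (adjusted p = 0.0124, edgeR). Kdm5d, a histone demethylase gene, was at 8.11, 4.33 and 3.02 CPM in tumor cKO libraries, against 20.8, 20.99 and 15.8 CPM in tumor WT libraries. Its spleen levels were 92.8, 72.7 and 83.97 CPM in spleen cKO libraries, against 98.5, 93.7 and 97.6 CPM in spleen WT libraries, and its difference was −1.68 ± 0.37 (adjusted p = 0.00979). Uty differed by −1.78 ± 0.52 (adjusted p = 0.0307), a call lost in 9 of 23 alternatives. Eif2s3y, a translation initiation factor gene, differed by −1.31 ± 0.48 and did not pass (adjusted p = 0.0817). For all 4 genes every tumor cKO library was below every tumor WT library, tumor cKO replicate 3 was the lowest library, and the spleen groups overlapped for Ddx3y, Uty and Eif2s3y. For Kdm5d every spleen cKO library was below every spleen WT library. Xist, the RNA of the inactive X chromosome, reached at most 0.161 CPM in tumor cKO, 0.216 CPM in tumor WT, 0.291 CPM in spleen cKO and 0.611 CPM in spleen WT.

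The X-linked relatives did not share one direction. Eif2s3x was at 166, 156 and 186 CPM in tumor cKO libraries, against 98.7, 124 and 99.5 CPM in tumor WT libraries, and its difference was 0.74 ± 0.17 (adjusted p = 0.0109). The differences of Ddx3x (0.55 ± 0.20, adjusted p = 0.0697), Kdm5c (−0.14 ± 0.17, adjusted p = 0.603) and Kdm6a (−0.83 ± 0.32, adjusted p = 0.0897) did not pass. Summed macrophage markers moved in the same direction as the Y-linked genes in tumor, at 5651, 5055 and 1976 CPM in tumor cKO replicates 1 to 3, against 14533 to 28777 CPM in tumor WT, and their part in this result was not tested.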
